A study of Mus musculus with 4 samples.

Results

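The transcripts described here come from a pair of imprinted regions of the mouse genome, the Dlk1-Meg3 region of chromosome 12 and the H19-Igf2 region of chromosome 7. Members were all loci of the deposited transcript models, on either strand, that overlapped chr12:110690000-111000000, chr7:149761000-149765000 or chr7:149836000-149853000 (mm9). There were 17 such loci of 35299 in the count table, 14 in the chromosome 12 window, 1 in the H19 window and 2 in the Igf2 window. The series holds 4 libraries of 1 group, Sham, and no second group. Each was made from poly(A)-selected RNA of heart tissue from 12-week-old C57BL/6J mice, collected at 2 weeks from a sham operation, at the place that would border an infarct. For replicate 4 the free text speaks of an infarct's border zone and leaves out sham, which its title, source and treatment all give. The table's libraries are headed 3RL, 7LR, 8R and 12RL, names that no label holds, so none can be tied to a replicate number. The labels number the samples as replicates and name no animals, so any p-value below measures the spread between these libraries. Each library held between 108345923 and 160670654 reads in loci.

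At an imprinted locus only the copy from 1 parent is transcribed. In the Dlk1-Meg3 region, the paternal copy gives Dlk1, a membrane protein of the Notch ligand family, and the maternal copy gives the noncoding RNAs Meg3, Rian and Mirg from the same strand. Rian is known as a host of C/D box small nucleolar RNAs and Mirg as a host of microRNAs. In the H19-Igf2 region, the maternal copy gives the noncoding RNA H19, host of miR-675, and the paternal copy gives Igf2, insulin-like growth factor 2. Many imprinted genes, Igf2, H19 and Dlk1 among them, are known for high levels in the fetus. The counts below do not separate parental copies.

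Because UCSC identifiers, not symbols, label the models, the 6 names were checked by structure. Exon and intron lengths were compared with GENCODE M21 (GRCm38) transcripts, with no coordinate converted. Of 19 UCSC models with more than 1 exon in the 6 named loci, 15 had the same chain of introns and internal exons as a transcript of the gene of that name, and for 14 of these no other gene had that chain. In 18 of the 19, every intron length was found in that gene. The exception was a Meg3 model with 5 of its 7 introns found. The tissue was not checked against heart markers.

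Of the 17 loci, 10 had a UCSC model and 7 were assembled from reads only. A mean of 10 or more normalised read counts (the authors' reads scaled by a size factor for each library) was reached by 7 of 17, where 53.6% of all loci in the table reached it. All 7 had a UCSC model, 7 of the 10 such members against a background of 57.3%. None of the 7 assembled members reached it, against 42.9% of all assembled loci. With so few members these shares are a description only. The loci above this mean were Igf2, Meg3, H19, Rian, Mirg and 2 unnamed loci, while Dlk1 lay just under it.

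**Figure D1:**
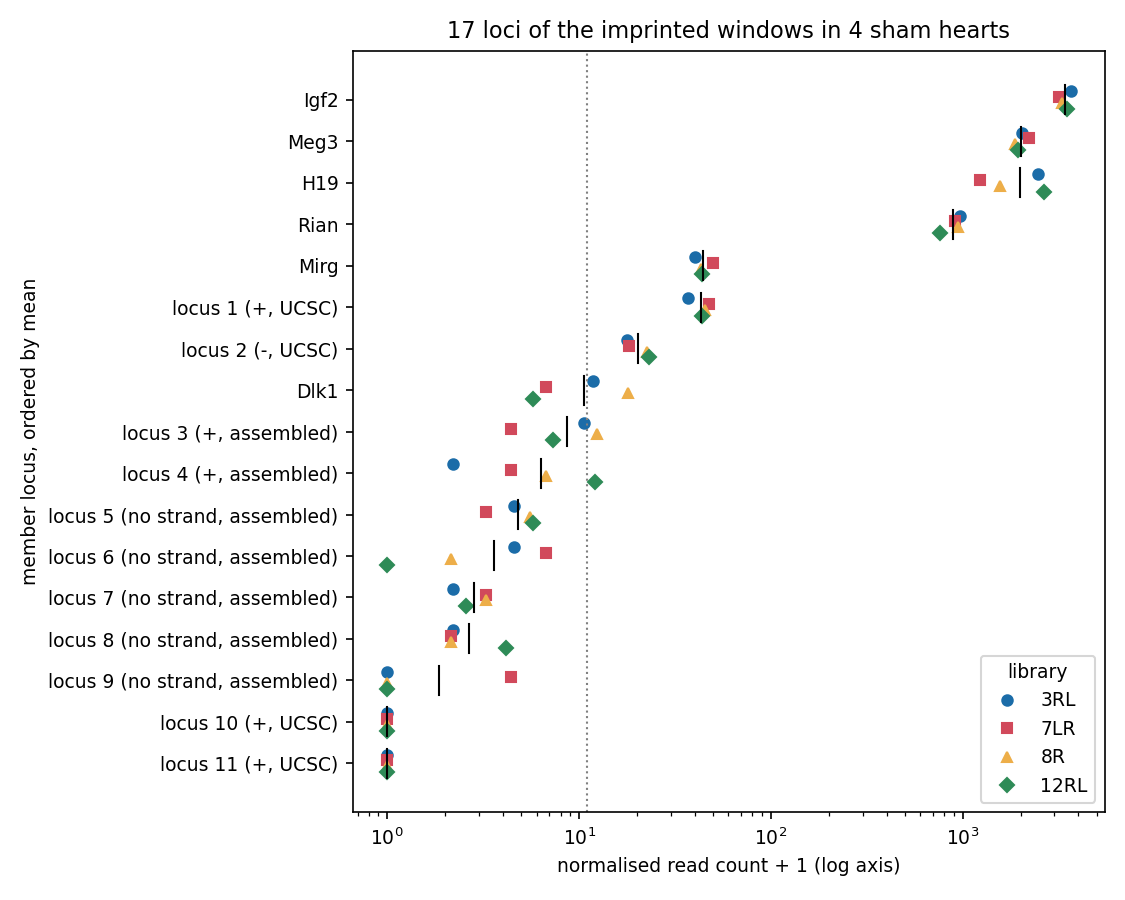
Normalised read count plus 1 (log axis) of each of the 17 loci in the 4 libraries, with a black bar at the mean and a dotted line at a mean of 10. Igf2, Meg3, H19 and Rian lie far to the right with means of 891 to 3397, Mirg lies near 43, and Dlk1 lies at 9.55.

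The starts of 4 genes that follow one another along the plus strand of the chromosome 12 region, and 1 start of Igf2, are shown because the levels below differ widely between them. Sequences are from RefSeq (GRCm38.p6) and run 5′ to 3′ on the strand of the gene, from 250 bases before the annotated start to 50 bases after it for noncoding genes and up to the start for Dlk1 and Igf2. Capitals mark CG dinucleotides. The windows are chr12:109452573-109452822 (plus strand, Dlk1), chr12:109540746-109541045 (plus, Meg3), chr12:109603695-109603994 (plus, Rian), chr12:109734731-109735030 (plus, Mirg) and chr7:142657497-142657746 (minus, Igf2).
Dlk1: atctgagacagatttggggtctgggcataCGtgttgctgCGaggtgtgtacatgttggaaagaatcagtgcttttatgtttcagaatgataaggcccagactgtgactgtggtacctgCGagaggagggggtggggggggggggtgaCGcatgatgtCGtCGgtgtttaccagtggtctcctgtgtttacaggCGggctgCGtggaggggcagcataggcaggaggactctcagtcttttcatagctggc
Meg3: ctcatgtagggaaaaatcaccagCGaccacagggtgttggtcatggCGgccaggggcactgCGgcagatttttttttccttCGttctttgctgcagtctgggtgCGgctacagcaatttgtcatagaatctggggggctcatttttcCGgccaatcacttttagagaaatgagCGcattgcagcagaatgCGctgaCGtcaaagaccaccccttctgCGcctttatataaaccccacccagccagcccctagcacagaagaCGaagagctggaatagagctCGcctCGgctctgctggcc
Rian: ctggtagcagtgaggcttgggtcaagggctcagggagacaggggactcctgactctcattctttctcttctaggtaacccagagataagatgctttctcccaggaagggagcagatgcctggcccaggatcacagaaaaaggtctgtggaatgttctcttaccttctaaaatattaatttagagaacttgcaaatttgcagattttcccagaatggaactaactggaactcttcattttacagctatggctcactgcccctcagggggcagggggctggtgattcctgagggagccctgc
Mirg: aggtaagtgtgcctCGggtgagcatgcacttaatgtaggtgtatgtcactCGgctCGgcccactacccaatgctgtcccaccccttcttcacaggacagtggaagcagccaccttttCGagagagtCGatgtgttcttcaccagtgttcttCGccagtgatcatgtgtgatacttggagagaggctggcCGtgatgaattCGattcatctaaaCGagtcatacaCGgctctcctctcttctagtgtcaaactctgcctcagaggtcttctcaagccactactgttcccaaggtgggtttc
Igf2: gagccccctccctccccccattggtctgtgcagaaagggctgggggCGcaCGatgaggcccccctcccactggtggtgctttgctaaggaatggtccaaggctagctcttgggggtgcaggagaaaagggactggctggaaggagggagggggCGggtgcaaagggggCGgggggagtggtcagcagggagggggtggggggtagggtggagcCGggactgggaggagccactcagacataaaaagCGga

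Counted over 300 bases, the window of Meg3 held 13 CG dinucleotides, Mirg 10, Dlk1 9, Igf2 7 and Rian 0, where the median of 32851 RefSeq promoters is 7. TATAAA, searched on both strands, was found in the Meg3 window only, just before the start, where it overlaps a copy of its reverse complement TTTATA. It is present in 13.6% of all promoters. GGGCGG, searched on both strands, was found in the Igf2 window only, and is present in 35.7% of all promoters. These are matches of letters and say nothing of binding. The counts depend on the start: RefSeq gives Meg3 a second start, with 1 CG dinucleotide, and Igf2 another 3, with 24, 14 and 2, whose sequences are not shown. Of these, the Igf2 window with 24 also holds GGGCGG.

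Dlk1, the protein-coding gene of the chromosome 12 region, was counted on few reads in these libraries. Its locus at chr12:110691433-110698901 (plus strand, 3 UCSC models of up to 6 exons) had 10.7 normalised counts in 3RL, with 5.69 in 7LR, 17.1 in 8R and 4.73 in 12RL. These values rest on 9, 5, 15 and 3 reads. The mean was 9.55 ± 5.65 (SD, n = 4), and 8R was highest. The CV (SD over mean) was 59.1%, where counting error alone gives 36.3%. Over the 4 libraries Dlk1 had 32 reads, with an exact Poisson 95% interval of 21.9 to 45.2 that covers counting error only. The UCSC models span 7469 bases, while RefSeq gives the gene 10852, so any reads outside the models are not in these counts.

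Meg3, a noncoding RNA known for its role in the control of the region, had the highest count of the chromosome 12 members. Its locus at chr12:110779214-110809935 (plus strand, 7 UCSC models of up to 10 exons) had 2022 normalised counts in 3RL, with 2198 in 7LR, 1876 in 8R and 1941 in 12RL. The mean was 2009 ± 139 (SD, n = 4), and the highest library was only 1.17 times the lowest. Meg3 held 67.1% of the counts of the chromosome 12 members. In read counts summed over the libraries, 6505 Meg3 reads stood against 32 Dlk1 reads, a ratio of 203 with an exact binomial 95% interval of 144 to 297 (counting error only). In single libraries that ratio was 188 in 3RL, with 386 in 7LR, 110 in 8R and 410 in 12RL, on 9, 5, 15 and 3 Dlk1 reads. Of these ratios 3 of 4 lay outside the interval of the sum. That interval is for the pooled reads, and counting error is wider in a single library. The start of Meg3 lies 80312 bases beyond the end of the Dlk1 models, and no locus was recorded between them. In RefSeq 77659 bases lie between these genes.

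Rian followed Meg3 in counts, and its models reached further upstream than UCSC had placed the gene. The locus at chr12:110842060-110899921 (plus strand) had 960 normalised counts in 3RL, with 906 in 7LR, 940 in 8R and 757 in 12RL. The mean was 891 ± 92.0 (SD, n = 4), with 12RL low and the other 3 libraries within a narrow range. The ratio of Meg3 to Rian counts ran from 2.00 in 8R to 2.56 in 12RL. The log2 ratio (of values plus 1) was 1.18 ± 0.17 (SD, n = 4) and above 0 in 4 of 4 libraries. The libraries also differed by a trend with transcript length, the running median of all UCSC loci. For Meg3 (5996 bases) this trend was -0.09 in log2 units where the ratio was lowest and 0.05 where it was highest. For Rian (2356 bases) it was 0.08 and -0.05. With the trend removed, the deviations from the gene mean in 8R were -0.01 for Meg3 and 0.004 for Rian. In 12RL they were -0.10 for Meg3 and -0.18 for Rian. The trend was taken at the longest UCSC model of each gene, and which isoforms gave the reads is not known. How much of the spread of the ratio goes with the trend was not tested. Fewer cells that make a transcript and less of it per cell cannot be told apart in such bulk tissue.

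The read assembly added 4 models to the 4 UCSC models of Rian. The UCSC models begin at chr12:110858537, and the assembled ones begin up to 16477 bases before that. With them the locus spans 57862 bases, where the UCSC models alone span 41385. RefSeq (GRCm38.p6), a later annotation, gives Rian a span of 57772. In each of 2 assembled models with 21 exons, all 20 intron lengths occur in GENCODE M21 transcripts of Rian, while a single GENCODE transcript holds at most 9 of them. Another assembled model of 22 exons had 19 of 21 intron lengths in that gene, and a short one had 2 of 3. Which libraries were assembled was not given in the sources used here.

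Mirg, the last of the noncoding genes along the strand, was far lower. Its locus at chr12:110973191-110987665 (plus strand, 2 UCSC models of up to 8 exons) had 39.4 normalised counts in 3RL, with 49.0 in 7LR, 42.1 in 8R and 42.6 in 12RL. The mean was 43.2 ± 4.06 (SD, n = 4). Its CV of 9.39% was below the 17.1% that counting error alone gives at this level, so no difference between libraries was detectable at this depth. The ratio of Rian to Mirg counts ran from 17.8 in 12RL to 24.4 in 3RL, with a log2 ratio (of values plus 1) of 4.33 ± 0.21 (SD, n = 4). Between the end of Rian and the start of Mirg lie 73269 bases without a recorded locus, a stretch in which the RefSeq table places 27 microRNA hairpins on the same strand.

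**Figure D2:**
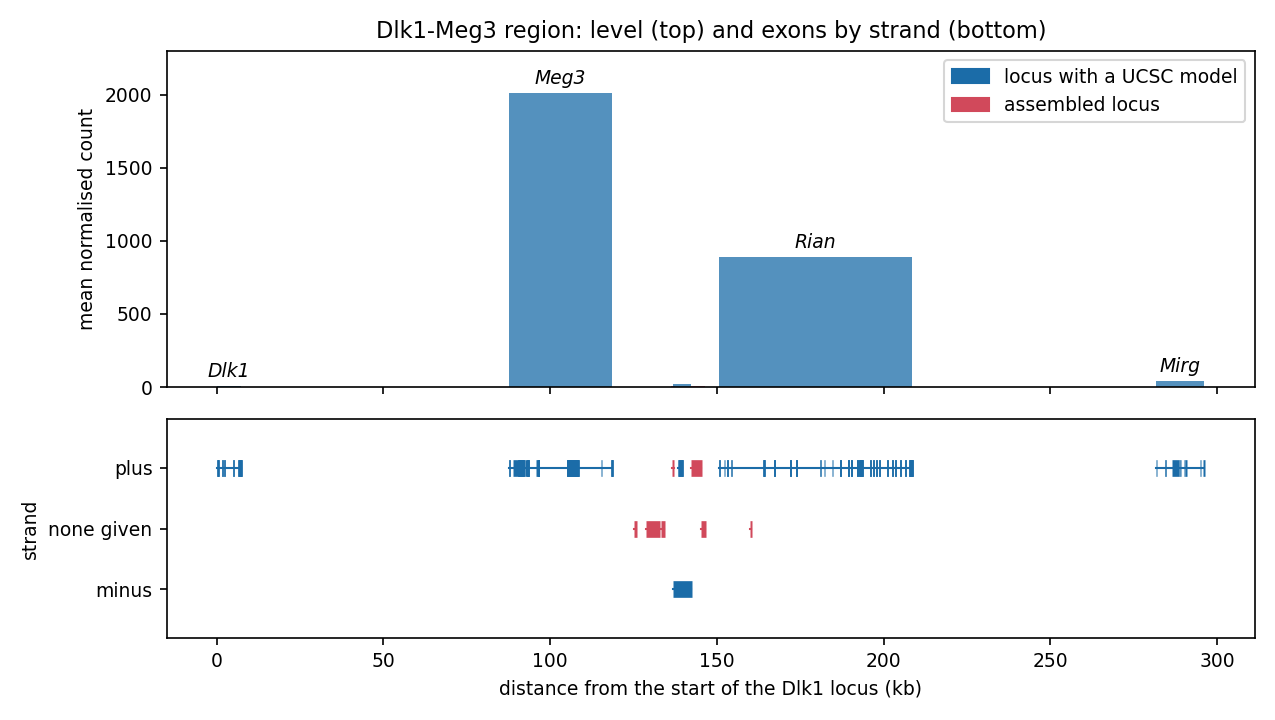
Mean normalised read count of each locus of the chromosome 12 window (top; bars span the locus, the narrowest widened to be seen) and its exons by strand (bottom; slightly widened to be seen), against distance in kb from the start of Dlk1. Counts are concentrated in Meg3 and Rian, and the stretch between them holds small loci with low counts.

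Between Meg3 and Rian, 9 loci of low count filled part of a gap of 32124 bases. Together they had 35.8 normalised counts in 3RL, with 37.6 in 7LR, 46.6 in 8R and 45.7 in 12RL, a sum of 41.4 ± 5.53 (SD, n = 4). Of these 9 loci, 6 were assembled from reads only, and the 7 assembled members, with 1 inside an intron of Rian, had means from 0.854 to 7.66. The highest of the 9 was a single-exon UCSC locus on the minus strand, opposite to Meg3 and Rian, at chr12:110828379-110833613. It had 16.7 normalised counts in 3RL, with 17.1 in 7LR, 21.6 in 8R and 22.1 in 12RL, from 62 reads in all. In GENCODE M21 the minus-strand gene Rtl1, a paternally expressed gene derived from a retrotransposon, lies between Meg3 and Rian. The single exon gave no intron chain by which to match this locus to it.

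A pair of plus-strand UCSC loci lie wholly within the exon of that minus-strand locus, and both were at 0 in all 4 libraries. In each library a count of 0 allows up to 3 reads, which is 3.41 to 4.73 normalised counts. Strandedness and the treatment of reads in overlapping loci were not given in the sources used here, so a 0 here does not show that the RNA is absent, and the counts of the loci on both strands are uncertain. The longer of the pair has 1315 bases and the shorter 22, starting 37 bases after the end of the longer. In RefSeq, the gene 6430411K18Rik between Meg3 and Rian also has 1315 bases, and the mature miR-127-3p of 22 bases also starts 37 bases after its end.

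MicroRNAs themselves were not measured in these long RNA libraries, but some lie in the RNA that was counted. The RefSeq table places 10 hairpins inside the extent of Mirg on the same strand, 3 in Rian and 1 each in Meg3, H19 and Igf2. Of the 10 in Mirg, 8 are in no exon of any GENCODE M21 transcript of the gene, as are all 3 in Rian and the 1 in Igf2. Placed from shared splice sites, the hairpin of miR-675 lay in an exon of the counted H19 model and that of miR-377 in an exon of a counted Mirg model. That Mirg model was matched by 1 intron length, a chain found in 5 genes of GENCODE M21. The Mirg model of 8 exons had no exact match, so no hairpin was placed in it. The mature sequences of miR-675 and miR-377 are shown, with bases 2 to 8, the seed, in capitals (RefSeq, GRCm38.p6). Also shown is miR-127-3p, set beside the 22-base locus by length and spacing alone, with no coordinate converted. The remaining pair are the only mature sequences of these hairpins that share a seed.
miR-675-5p: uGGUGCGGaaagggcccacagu
miR-675-3p: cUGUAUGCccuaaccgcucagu
miR-377-5p: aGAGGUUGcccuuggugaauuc
miR-377-3p: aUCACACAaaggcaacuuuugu
miR-127-3p: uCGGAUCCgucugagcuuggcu
miR-453: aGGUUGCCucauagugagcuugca
miR-496a-5p: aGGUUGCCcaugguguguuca

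The last 2 lie in Mirg and share the seed GGUUGCC. Both hairpins are outside the exons of the GENCODE M21 transcripts of Mirg.

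In the chromosome 7 region, Igf2 had the highest count of all members and was steady between libraries. Its locus at chr7:149836673-149845394 (minus strand, 2 UCSC models of 4 exons) had 3641 normalised counts in 3RL, with 3156 in 7LR, 3287 in 8R and 3507 in 12RL. The mean was 3397 ± 217 (SD, n = 4), and the highest library was 1.15 times the lowest. It exceeded 79.2% of all loci with a UCSC model in count, before any correction for length. The UCSC models span 8722 bases, while RefSeq gives the gene 16049 with further starts upstream of the one shown above.

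H19 varied far more. Its single model of 5 exons at chr7:149761436-149764019 (minus strand) had 2460 normalised counts in 3RL, with 1229 in 7LR, 1567 in 8R and 2657 in 12RL. Libraries 3RL and 12RL were high and 7LR and 8R low, with 2.16 times as many counts in the highest as in the lowest. The mean was 1978 ± 689 (SD, n = 4). Counting error alone gives a CV of 2.53% at this level, against 34.8% observed. The ratio of H19 to Igf2 counts was 0.676 in 3RL, with 0.389 in 7LR, 0.477 in 8R and 0.758 in 12RL, so Igf2 had more counts in 4 of 4 libraries. The log2 ratio (of values plus 1) was -0.85 ± 0.44 (SD, n = 4). Both genes were lowest in 7LR and next lowest in 8R, but the highest and lowest values of Igf2 differed far less than those of H19.

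Just 203 bases beyond the upstream end of Igf2, a locus on the opposite strand was present at a low level. It lies at chr7:149845598-149856261 (plus strand, 4 exons). It had 35.8 normalised counts in 3RL, with 46.7 in 7LR, 44.3 in 8R and 42.6 in 12RL, a mean of 42.4 ± 4.68 (SD, n = 4). Its chain of 3 introns and its internal exons was that of 1 gene in GENCODE M21, Igf2os, the antisense transcript of Igf2. Its exons do not overlap the UCSC models of Igf2. Without known strandedness, reads of this locus and of unlisted Igf2 exons there cannot be told apart. Between the H19 and Igf2 loci lie 72653 bases without a recorded locus.

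Levels of different genes can be compared only per length, here as normalised counts per kilobase of the longest spliced UCSC model. H19 had 877 ± 305 (SD, n = 4), Igf2 719 ± 46.0, Rian 378 ± 39.0, Meg3 335 ± 23.2, Mirg 21.6 ± 2.03 and Dlk1 5.76 ± 3.41. The Rian locus also holds exons of assembled models, which its length of 2356 bases leaves out, so its value here is raised. With the longest model of any kind (3644 bases) it was 244, below Meg3. The median of the 18748 UCSC loci above 0 was 318 per kilobase. By the UCSC length, Rian and Meg3 were near the middle of expressed loci and H19 and Igf2 above it. Igf2 exceeded Rian by 1.91-fold, Meg3 exceeded Mirg by 15.6-fold and Mirg exceeded Dlk1 by 4.25-fold (geometric means over 4 libraries), each in 4 of 4 libraries and with ranges that did not overlap. The size of the first step depends on the length. Igf2 and Rian had 899 and 855 with the median UCSC model, and 707 and 212 with the union of all exons. For each of the 3 steps the exact two-sided sign-flip test gave p = 0.13, the smallest that 4 libraries allow, and 0.208 after Benjamini-Hochberg adjustment over the 5 pairs of neighbours. The pairs came from ranking the same 4 libraries, so the test is no independent support for the order.

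The other neighbours in that order did not differ beyond their spread. H19 was above Igf2 per kilobase in 2 of 4 libraries (exact sign-flip p = 0.5, adjusted 0.5), and Rian was above Meg3 in 3 of 4 (exact p = 0.25, adjusted 0.312). The length matters most for these genes of many models. With the longest model of any kind Rian had 244 per kilobase and lay below Meg3, and with the median UCSC model Meg3 had 1057, Igf2 899, H19 877 and Rian 855. Mirg and Dlk1 were lowest under every length tried. The deposited counts do not show which isoforms gave the reads.

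**Figure D3:**
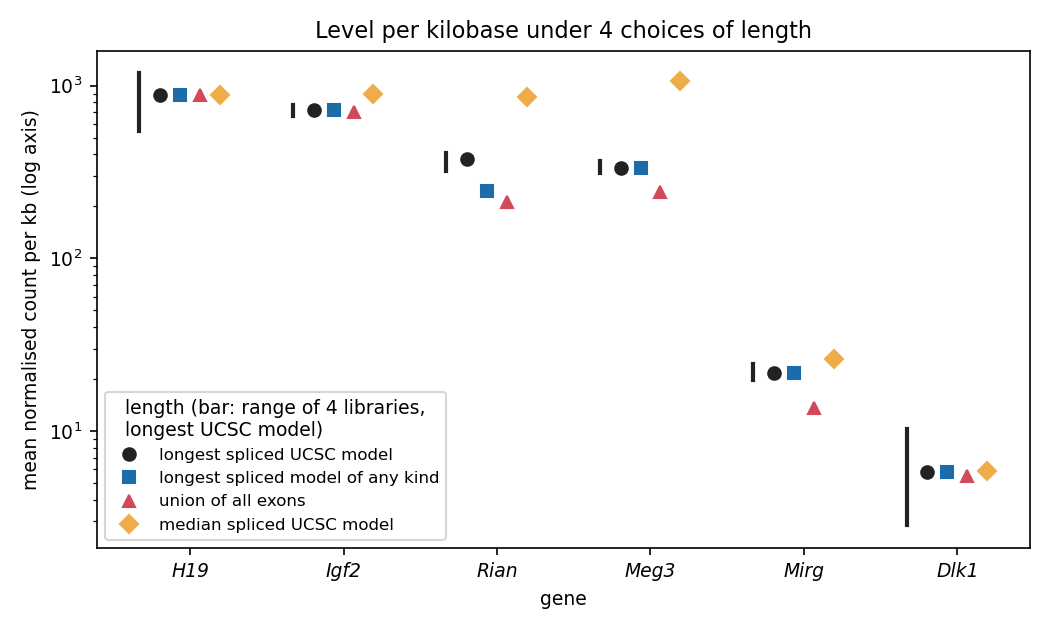
Mean normalised count per kilobase (log axis) of the 6 genes under 4 choices of transcript length, with bars for the range of the 4 libraries under the longest spliced UCSC model. Meg3 and Rian move most with the choice, from 243 to 1057 and from 212 to 855, while Mirg and Dlk1 stay lowest.

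On the log2(value + 1) scale, Meg3 was highest in 7LR (0.13 above its mean) and lowest in 8R (-0.10). Before any correction for length, Rian was lowest in 12RL (-0.23) and highest in 3RL (0.11). Mirg was highest in 7LR (0.18) and lowest in 3RL (-0.13), but its spread was below counting error, so this order cannot be told from counting error. H19 was 0.50 above its mean in 12RL, 0.39 above in 3RL, -0.27 in 8R and -0.62 in 7LR. In these libraries long and short transcripts deviate differently, and at the length of H19 the running median of all UCSC loci deviated by 0.04 in 3RL, with -0.06 in 7LR, 0.08 in 8R and -0.05 in 12RL. With that trend removed, the CV of H19 was 35.8%. With the trend at its own length removed, Meg3 was highest in 7LR (0.07) and lowest in 12RL (-0.10). Rian was then also lowest in 12RL (-0.18), with 0.08 in 3RL and 0.08 in 7LR.

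**Figure D4:**
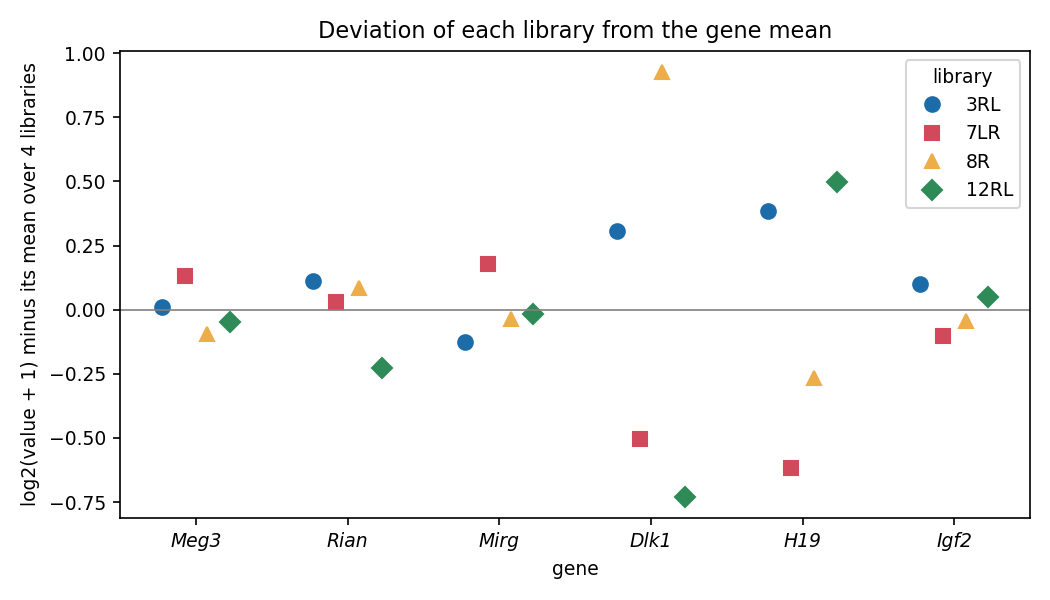
The 6 genes on the x axis and, on the y axis, how far each library lies from the gene mean in log2(value + 1). H19 runs from -0.62 in 7LR to 0.50 in 12RL and Dlk1, on few reads, from -0.73 to 0.93, while Meg3, Rian, Mirg and Igf2 stay within 0.23 of their means.

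Against loci of like abundance, H19 was high in spread. Its CV was above that of 97.8% of the loci nearest it in mean, and its SD of log2 values above 98.4%. The same percentile of the CV was 75.4% for Dlk1, 43.1% for Rian, 29.9% for Meg3, 29.5% for Igf2 and 5.39% for Mirg. The median CV of the 14424 loci with a mean of 50 or more was 10.6%, close to the 10.3% of Rian. The spread of H19 did not rest on a single library: leaving out 1 library at a time gave CVs from 26.1% (without 7LR) to 41.1% (without 3RL). The CV of Rian was 2.88% without 12RL and that of Meg3 3.77% without 7LR. That of Mirg was 4.13% without 7LR, but with all libraries it was already below counting error. By Dixon's ratio on the 4 values, 1 library stood apart in 0 of the 4 members with a mean of 50 or more, against a background of 4.6% of all such loci (3.15% with the highest library apart, 1.45% with the lowest).

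**Figure D5:**
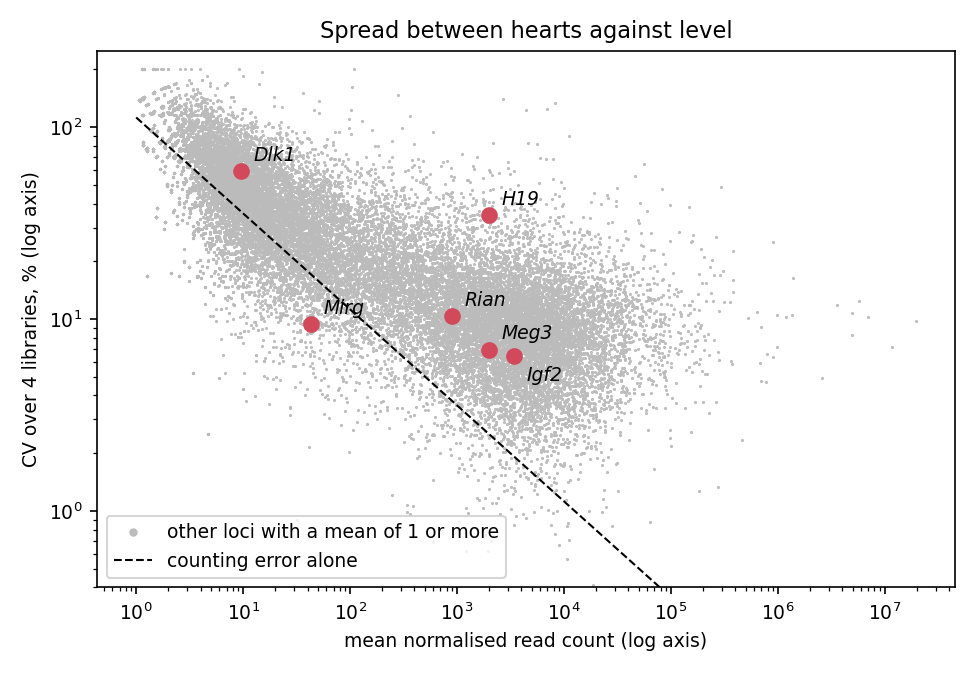
CV over the 4 libraries against mean normalised count (both log axes) for all loci with a mean of 1 or more (grey), the 6 genes (red) and counting error alone (dashed). H19 at 34.8% lies near the upper edge of loci of its level, and Mirg at 9.39% lies below the counting line.

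The loci most like each gene over the 4 libraries were found by the Euclidean distance of log2 deviations, among the 14424 loci with a mean of 50 or more. With only 4 libraries many loci have like patterns: within a distance of 0.1 there were 317 other loci for Igf2, 267 for Meg3, 166 for Rian and 149 for Mirg, but 0 for H19 and 0 for Dlk1. This distance grows with the size of the deviations, which were widest for H19 and Dlk1, so the 0 does not make their patterns rare. Pearson's r with the nearest locus was 0.997 for H19 and 0.996 for Dlk1. The locus nearest to H19, at a distance of 0.12, was a UCSC locus of 3 exons at chr3:90496555-90499613 with 104 normalised counts in 3RL, with 56.9 in 7LR, 72.8 in 8R and 118 in 12RL. The next, at 0.15, was an assembled single-exon locus at chr2:103640547-103645636. For Igf2 the nearest were chr10:116423370-116470602 and chr7:19679893-19683694, and for Meg3 chr7:54176009-54213888 and chr11:113545720-113587781. For Rian they were chr6:124480362-124492377 and chr9:37410883-37421511, and for Mirg chr17:6306340-6860535 and chr18:60448305-60552283. For Dlk1 they were chr5:18936685-18945307 and chr8:126415667-126418636, at 0.15 and 0.29. Only 4 of the 17 members have a mean of 50 or more and could have been found in this search. With Pearson's r as the measure of likeness 1 of these 12 loci remained.

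Around the windows, levels ranged widely. The 5 nearest loci on each side of the chromosome 12 window had means from 0 to 18831 normalised counts, and the nearest lay 383573 bases before and 140611 bases after it. On chromosome 7, the 5 loci before H19 had means from 0.583 to 4817, while the 5 after Igf2, the nearest at 11566 bases, had means from 0.394 to 5.50. Igf2 at 3397 and its antisense neighbour at 42.4 lie between these groups.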

How the data were processed

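Poly(A)-selected long RNA of 4 Sham heart samples was sequenced from both ends, 100 bases each, per the labels' protocols. The authors deposited a table of normalised counts (a signal: for 35299 loci, reads scaled by a size factor for each library) and a file of exon positions on mm9. Per the submitters' processing notes, the tools included DESeq, HTSeq 0.5.4p2, Cufflinks 2.0.2 and TopHat2 2.0.5; strandedness and counting mode were not given in the sources used here. All values (100%) were whole multiples of 1 step per library within 0.001, so the reads could be recovered, and 1 read is worth 1.14 to 1.58 normalised counts. With 1 group no count test was possible.

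Members and lists were chosen with earlier results of these data known. Names were given along the plus strand in the order of the rule to UCSC loci of more than 1 exon, on the minus strand for H19 and Igf2; other loci are given by position. All members with a mean of 10 or more and the 6 named genes are given with each library's value, and 2 nearest loci are named per gene. Neighbours in level were compared by an exact sign-flip test over the libraries. Alternatives were other scalings (TMM by edgeR 4.0.16 in R 4.3.3), lengths, pseudocounts, minimum means and leaving out each library. The spread and length-trend steps were tested on simulated data. Python 3.11.15, numpy 2.4.6 and pandas 2.3.3 were used.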

Additional observations from a re-analysis of the deposited data

How the results depend on the processing

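Of 150 alternative values, 129 stayed within the limit set for them, and 21 moved further. The limit was 1 SD between libraries for a level or a log2 ratio, and 1.5 times for a CV or a count. For a percentile it was 10 points, and the order had to keep all 5 neighbouring pairs. Part of the 129 was fixed in advance. Leaving out 1 of 4 libraries cannot shift a mean count or a mean log2 ratio by 1 SD. For some genes a length tried was the same as the main one. The 129 are therefore not a measure of how robust the results are. The mean counts of all 6 genes and the count of 0 members in which 1 library stood apart were among those that did not move, under every scaling run. All scalings were set to the same geometric mean of size factors, so for the mean counts this too was largely fixed in advance. The level per kilobase moved with the length by construction. With the union of all exons it was 243 for Meg3, 212 for Rian and 13.6 for Mirg, with the longest model of any kind 244 for Rian, and with the median UCSC model 1057 for Meg3, 855 for Rian, 26.2 for Mirg and 899 for Igf2. The order of the 6 genes by level per kilobase then kept 4 of its 5 neighbouring pairs (union, longest model of any kind) or 3 (median UCSC model), and all 5 when any library was left out. Under all 3 other lengths the direction between Rian and Meg3 turned, with Meg3 higher, and under the median UCSC model Igf2 was also above H19. With a pseudocount of 10 in place of 1, the log2 ratio of Meg3 to Dlk1 was 6.73 against 7.72 and that of Rian to Mirg 4.08 against 4.33, since a larger pseudocount shrinks ratios to low counts. Equal table totals raised the CV of Meg3 from 6.93% to 11.6%; the cause was not tested. Leaving out 1 library at a time gave CVs of 3.77% (without 7LR) to 8.5% for Meg3, 2.88% (without 12RL) to 12.6% for Rian and 4.13% (without 7LR) to 11.4% for Mirg. The number of members detected, 7 at a mean of 10, was 14 at a mean of 1, 4 at a mean of 50 and 13 when every library had to be above 0. Of the 12 nearest loci, 1 remained with Pearson's r. No paired analysis was possible because the 4 libraries form a single group. Depth limits Dlk1, Mirg and the unnamed loci, which had 140 reads or fewer over the 4 libraries.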
